A study of Mus musculus with 5 samples.

Results

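Histone lysine methyltransferases and demethylases were followed in mouse embryonic stem (ES) cells that lack Dicer, an enzyme without which most microRNAs cannot mature. The members were the genes whose array symbol begins with Kdm or Kmt and a number, with Setd, or with Prdm and a number, 3 such genes being left out. They came to 45 of the 19938 genes tested. Each gene was read by 1 probe set, the one with the highest mean over the arrays. The groups were 2 arrays of Dicer-deficient ES cells and 3 arrays of wild type ES cells, all from asynchronous cultures. Both kinds of cell grew without feeders in an equal mix of serum+LIF medium and N2B27+2i medium. LIF is a cytokine that sustains self-renewal, and 2i stands for a pair of kinase inhibitors. The labels name no cell line, clone or Dicer allele, so loss of Dicer and other differences between the lines cannot be told apart. Early G1 cultures, which the design text also names, and 1 more culture of Dicer-deficient cells were not used here.

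Methyl groups on histone lysines are written by methyltransferases and removed by demethylases, and their effect depends on the residue. Methylation of H3K4 marks promoters and enhancers in use, H3K36 methylation follows transcribed gene bodies, and methylation of H3K9, H3K27 or H4K20 is found in silent or compact chromatin. Most of the writers share a SET domain, to which the PR domain of the PRDM zinc finger proteins is related. The erasers are either FAD-dependent amine oxidases or JmjC-domain dioxygenases. In ES cells these enzymes are known for silencing retroviral repeats and for holding developmental genes in check.

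Dicer1 was at 7.20 and 6.84 in Dicer-deficient cells, against 8.84, 8.82 and 8.85 in wild-type cells (log2 signals; log2 change -1.82, SE 0.112, adjusted p = 0.000129). The groups did not overlap. The labels do not say which exons were removed, and a probe set outside them would check nothing. The ES cell markers were present in both groups: 10 genes listed as such lay between 7.42 and 13.27 on every array, where the median of all values was 5.41 (called the array median below). Of these 10, Klf4, Esrrb and Tdgf1 were lower in Dicer-deficient cells and 0 were higher in limma. Among markers of other cells, 3 of 8 trophectoderm genes were higher in limma (Gata3, Krt8, Krt18). So were 3 of 5 mesoderm genes (Kdr, Gsc, Evx1) and 2 of 6 neuroectoderm genes (Pax6, Map2). In these lists 0 were lower, and 0 of 8 fibroblast and 0 of 8 primitive endoderm genes were called. Over all genes tested, 8.48% were called higher and 8.6% lower. Log2 changes were below 0 for 3 trophectoderm genes, among them Eomes (-0.49), and 3 neuroectoderm genes, among them Tubb3 (-0.36). The mean level of the trophectoderm list was 6.55 and 6.47 in Dicer-deficient cells, against 6.09, 6.17 and 6.21 in wild-type cells. For the mesoderm list it was 5.56 and 5.62 in Dicer-deficient cells, against 5.11, 5.26 and 5.25 in wild-type cells. For the neuroectoderm list it was 5.81 and 5.91 in Dicer-deficient cells, against 5.65, 5.71 and 5.80 in wild-type cells. Their part in the results below was not tested. In bulk cultures, fewer cells of a type and less RNA per cell cannot be told apart.

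Of the 45 members, 6 rose and 6 fell in Dicer-deficient cells, and 33 did not pass an adjusted p of 0.05 in limma's moderated test. The members called were 26.7% of 45, against 17.1% of all genes tested (8.48% higher and 8.6% lower). That background holds many dim genes. Among the 11168 genes with a mean above the array median, adjusted over these alone, 32.8% were called, and 14 of the 41 members among them, 34.1%, a share near the background. The median log2 change of the members was 0.07, with 25 changes above 0 and 20 below, against 0.01 for all genes. The median size of a change was 0.22 for the members and 0.115 for all genes, dim ones included. The member changes ran between -0.67 and 0.54, those of all genes between -3.14 and 4.20.

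**Figure D1:**
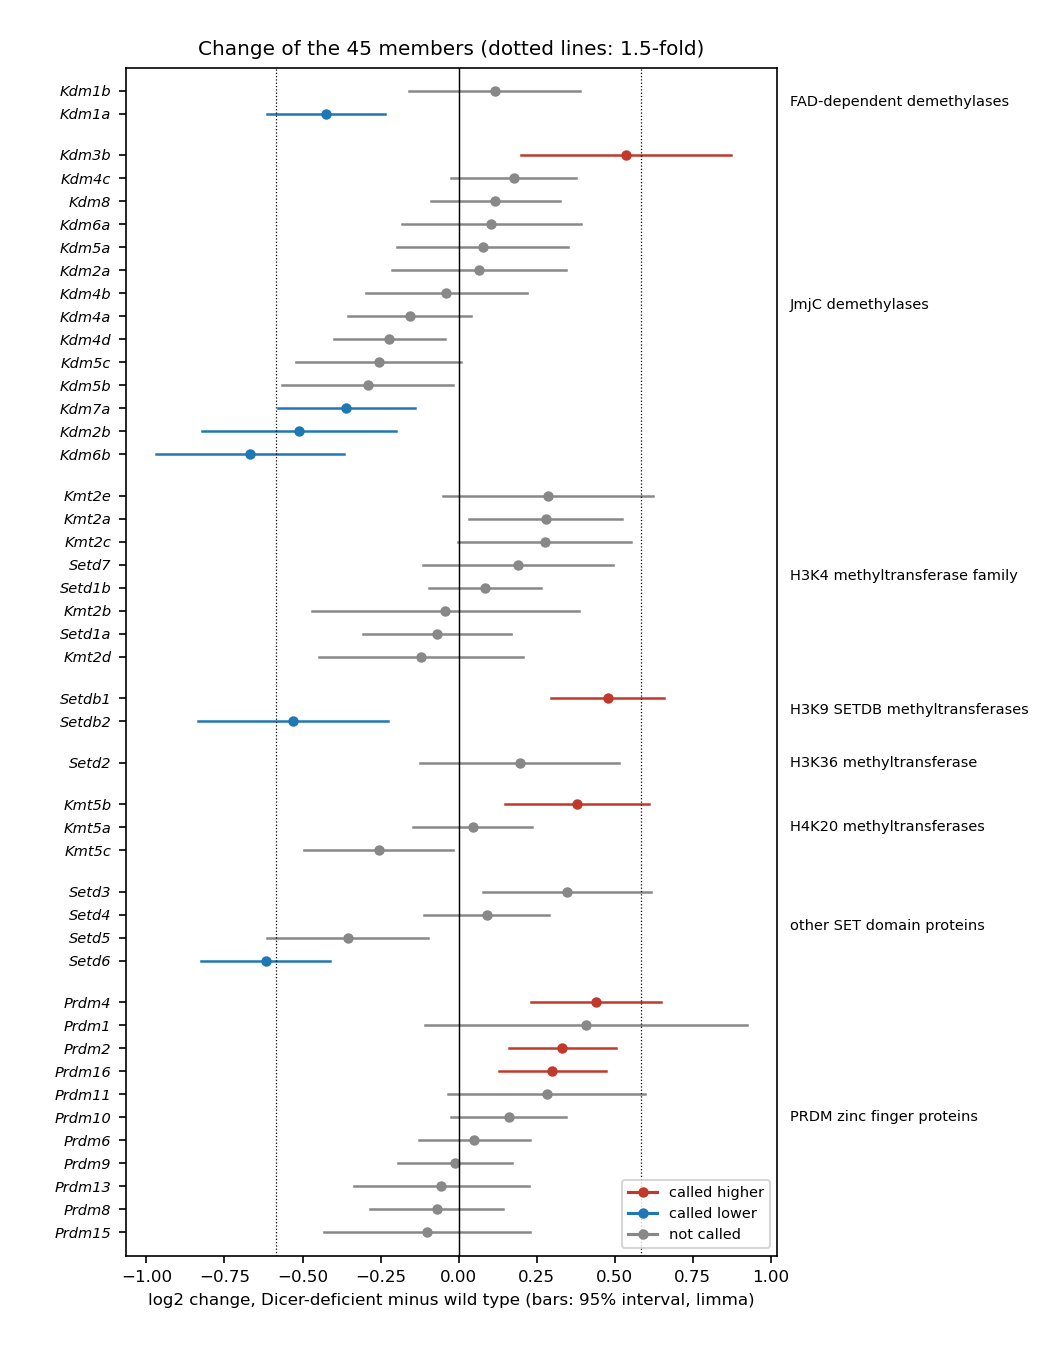
Log2 change (Dicer-deficient minus wild type, x axis) of each of the 45 members, grouped by class, with the 95% interval of limma as a bar; red and blue mark members called higher and lower, grey those not called, and dotted lines 1.5-fold. Kdm6b has the largest fall (-0.67) and Kdm3b the largest rise (0.54). The 8 genes of the H3K4 family hold no call, where 17.1% of all genes were called.

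Of 16 demethylases, 4 fell (Kdm1a, Kdm2b, Kdm6b, Kdm7a) and 1 rose (Kdm3b). The 5 calls were 31.2% of the class, where 17.1% of all genes were called. Among the brighter genes, in a fit of their own, 32.8% were called. Over the 16, 9 changes were below 0 and 7 above, with a median of -0.10. Kdm6b removes methyl groups from H3K27, the mark laid down by the Polycomb complex PRC2. Its log2 signal was 7.07 and 7.18 in Dicer-deficient cells, against 8.04, 7.73 and 7.61 in wild-type cells. Both Dicer-deficient values lay below the wild-type range, by 0.43, which was also the spread among the wild-type arrays. The fall was 1.59-fold (log2 change -0.67, SE 0.13, adjusted p = 0.0115). Kdm6a, the X-linked enzyme for the same mark, had 7.47 and 7.38 in Dicer-deficient cells, against 7.49, 7.38 and 7.09 in wild-type cells, and the groups overlapped (log2 change 0.10, 95% interval -0.18 to 0.39). Uty, the Y-linked relative of Kdm6a and no member, fell to 4.76 and 4.96 in Dicer-deficient cells, against 6.47, 6.47 and 6.19 in wild-type cells (log2 change -1.52, adjusted p = 0.000232), its Dicer-deficient values being under the array median. How far the probes of these relatives read each other's RNA was not tested.

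Kdm1a, also known as LSD1, is the flavin-dependent eraser of mono- and dimethylated H3K4 that works with the CoREST corepressor. It had 9.71 and 9.68 in Dicer-deficient cells, against 10.18, 10.14 and 10.04 in wild-type cells. The gap between the groups was 0.33, against spreads of 0.03 and 0.14 within them, and the fall was 1.34-fold (log2 change -0.43, SE 0.0805, adjusted p = 0.0104). Its relative Kdm1b, an H3K4 eraser known for its role in oocytes, had 6.34 and 6.73 in Dicer-deficient cells, against 6.43, 6.44 and 6.39 in wild-type cells. The Dicer-deficient values of Kdm1b lay on either side of the wild-type ones. Of the corepressor partners of Kdm1a that were listed, Phf21a, a reader of unmethylated H3K4, was 1.59-fold higher (adjusted p = 0.00465). Zmym2 was 1.51-fold lower (adjusted p = 0.00261). Rcor1 and Rcor2 had log2 changes of -0.06 and -0.23 (adjusted p = 0.728 and 0.311). Rcor3, Hdac1, Hdac2, Hmg20b and Gfi1b, from the same list, had 0.22, 0.19, 0.31, -0.07 and 0.18 and did not pass.

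Kdm2b erases H3K36 methylation and brings a variant PRC1 complex to unmethylated CpG islands. It had 8.03 and 8.22 in Dicer-deficient cells, against 8.80, 8.72 and 8.39 in wild-type cells, a 1.43-fold fall (log2 change -0.51, SE 0.133, adjusted p = 0.0368). The groups did not overlap, with wild-type array 3 nearest to the Dicer-deficient values. Its paralog Kdm2a, which also binds CpG islands, had overlapping groups and a log2 change of 0.07 (95% interval -0.21 to 0.34). Kdm7a, an eraser of H3K9 and H3K27 dimethylation, had 6.46 and 6.54 in Dicer-deficient cells, against 6.84, 6.75 and 6.99 in wild-type cells (1.28-fold lower, adjusted p = 0.0376). A second probe set of Kdm7a read the same direction, with 4.85 and 5.16 in Dicer-deficient cells, against 5.52, 5.45 and 5.74 in wild-type cells.

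Kdm3b, an H3K9 demethylase, was the only demethylase called higher. It had 10.32 and 10 in Dicer-deficient cells, against 9.74, 9.75 and 9.38 in wild-type cells (1.45-fold higher, log2 change 0.54, SE 0.144, adjusted p = 0.0411). The groups were 0.25 apart, less than the spread within either, and array 3 was the lowest of the wild-type ones. The calls on the demethylases rest on few arrays. The call on Kdm1a was lost without wild-type array 2 or either Dicer-deficient array (adjusted p from 0.0582 to 0.0967), and that on Kdm6b without the same arrays (0.0605 to 0.176). Of the 5 fits without 1 array, the call on Kdm2b held only when wild-type array 3 was dropped (0.131 to 0.314 otherwise), and Kdm3b and Kdm7a lost theirs whichever of the 5 arrays was left out (0.0887 to 0.351 and 0.0647 to 0.243).

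Besides Kdm2a and Kdm6a, 8 other members with a JmjC domain did not pass the test. The H3K9 and H3K36 erasers Kdm4a, Kdm4b and Kdm4c had log2 changes of -0.16, -0.04 and 0.18. Kdm4d, which has an annotated pseudogene relative, had -0.22, with every value under the array median. The H3K4 erasers Kdm5a, Kdm5b and the X-linked Kdm5c had 0.08, -0.29 and -0.26. For Kdm5b, known as abundant in ES cells, the values were 10.59 and 10.28 in Dicer-deficient cells, against 10.81, 10.78 and 10.59 in wild-type cells, so that the groups met. Kdm8 had 0.12, with both Dicer-deficient arrays at 6.71 and wild-type values from 6.47 to 6.67.

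The SETDB pair of H3K9 methyltransferases split. Setdb1, which silences endogenous retroviruses together with Trim28, had 9.36 and 9.30 in Dicer-deficient cells, against 8.91, 8.81 and 8.84 in wild-type cells. The groups were 0.39 apart, against spreads of 0.06 and 0.10 within them, and the level was 1.39-fold higher (log2 change 0.48, SE 0.0779, adjusted p = 0.00555). Setdb2 had 5.13 and 5.27 in Dicer-deficient cells, against 5.95, 5.51 and 5.73 in wild-type cells (1.44-fold lower, log2 change -0.53, SE 0.131, adjusted p = 0.03). Both Dicer-deficient signals of Setdb2 were under the array median. The call on Setdb1 was lost without either Dicer-deficient array (adjusted p = 0.0558 to 0.0715). That on Setdb2 held only when wild-type array 2 was dropped (0.0779 to 0.276 otherwise).

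None of the 8 genes of the H3K4 methyltransferase family was called by limma, and 1, Kmt2a, had an unadjusted p under 0.05. By comparison, 17.1% of all genes were called and 27.8% had such a p. The brighter genes, in their own fit, had 32.8% called. Kmt2a, the MLL1 enzyme, had 8.41 and 8.16 in Dicer-deficient cells, against 8.12, 7.93 and 7.97 in wild-type cells (log2 change 0.28, adjusted p = 0.126), the groups being apart by 0.04. The enhancer enzymes Kmt2c and Kmt2d had log2 changes of 0.28 and -0.12, and Kmt2b, which acts at promoters of developmental genes, had -0.04. Kmt2b varied most among the wild-type arrays of this family, at 8.55 and 8.39 in Dicer-deficient cells, against 8.90, 8.42 and 8.22 in wild-type cells. Setd1a and Setd1b, catalytic subunits of the SET1 complexes, had -0.07 and 0.09, Setd7, which monomethylates H3K4 and other proteins, had 0.19, and Kmt2e, a family member without known activity on H3K4, had 0.29. For 7 of the 8 (87.5%) the 95% interval lay within 1.5-fold in either direction, against 81.4% of all genes. Kmt2e was the exception, with an upper bound of 0.62.

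Among the H4K20 enzymes, Kmt5b, which makes di- and trimethylated H4K20, had 7.57 and 7.46 in Dicer-deficient cells, against 7.24, 7.18 and 6.99 in wild-type cells. It was 1.30-fold higher (log2 change 0.38, SE 0.0986, adjusted p = 0.0369), a call lost whichever of the 5 arrays was left out (adjusted p from 0.0591 to 0.257). Kmt5c, its paralog, had 8.50 and 8.30 in Dicer-deficient cells, against 8.69, 8.75 and 8.53 in wild-type cells, the opposite direction, and did not pass (log2 change -0.26, 95% interval -0.49 to -0.02, adjusted p = 0.146). Kmt5a, the monomethylase of H4K20, had a log2 change of 0.05. Setd2, the H3K36 trimethylase, was read by a pair of probe sets with changes of 0.20 and 0.25, neither of which passed.

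Setd6, a methyltransferase known from human cells for modifying the NF-kappa-B subunit RelA, had the smallest adjusted p of the 45. Its signal was 8.53 and 8.42 in Dicer-deficient cells, against 9.16, 9.13 and 8.99 in wild-type cells. The groups were 0.46 apart, and the level was 1.54-fold lower (log2 change -0.62, SE 0.0882, adjusted p = 0.0031). Its call was lost without Dicer-deficient array 2 (adjusted p = 0.065) and held without each of the other 4. The other 3 genes of this class did not pass. The groups of each did not overlap, as was so for 39.9% of all genes, and those of Setd4 were only 0.01 apart. Setd3 methylates a histidine of actin. It had 8.12 and 8.17 in Dicer-deficient cells, against 7.65, 8.01 and 7.73 in wild-type cells (adjusted p = 0.0851). The adjusted p of Setd3 was 0.039 without wild-type array 2, 0.227 without array 1 and 0.199 without array 3. Without Dicer-deficient array 1 or 2 the log2 change was 0.37 or 0.32. The other probe set of Setd3 had a log2 change of 0.20 (adjusted p = 0.237), and the mean of its probe sets had 0.275 (adjusted p = 0.129). Setd5 had 8.41 and 8.28 in Dicer-deficient cells, against 8.89, 8.61 and 8.60 in wild-type cells (log2 change -0.36, adjusted p = 0.0691). Setd4 had 6.30 on both Dicer-deficient arrays, against 6.29, 6.10 and 6.24 in wild-type cells.

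Of the 11 PRDM genes, 3 rose and 0 fell in limma, and the same 3 had an unadjusted p under 0.05. Both shares were 27.3%, where 17.1% of all genes were called and 27.8% had such a p. Prdm4, known from neural stem cells as a partner of Prmt5, had 8.75 and 8.85 in Dicer-deficient cells, against 8.26, 8.36 and 8.46 in wild-type cells (1.36-fold higher, log2 change 0.44, SE 0.0897, adjusted p = 0.0141). Prdm2, the tumour suppressor RIZ, had 7.93 and 7.90 in Dicer-deficient cells, against 7.59, 7.57 and 7.59 in wild-type cells, a small change of 0.33 between groups that hardly varied (SE 0.0732, adjusted p = 0.0194). Its other probe set did not pass: 5.96 and 6.21 in Dicer-deficient cells, against 6.44, 6.24 and 5.71 in wild-type cells, a log2 change of -0.045. Prdm16, known for brown fat and for stem cells of the blood and brain, had 5.86 and 5.82 in Dicer-deficient cells, against 5.54, 5.52 and 5.56 in wild-type cells (1.23-fold higher, adjusted p = 0.03), not far above the array median. All 3 calls held only when wild-type array 3 was dropped, with adjusted p otherwise from 0.0507 to 0.138 for Prdm4, 0.052 to 0.109 for Prdm2 and 0.0724 to 0.14 for Prdm16.

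Prdm1, a repressor that specifies primordial germ cells, differed most between the Dicer-deficient arrays of all members. It had 6.35 and 5.50 in Dicer-deficient cells, against 5.55, 5.37 and 5.63 in wild-type cells. Array 1 alone stood above the wild-type range, and the change of 0.41 did not pass (adjusted p = 0.302). It was -0.02 without Dicer-deficient array 1, and 0.83 with adjusted p = 0.0482 without array 2. Prdm10 and Prdm11 had changes of 0.16 and 0.28 with groups that did not overlap, and Prdm15, a regulator of pluripotency signalling, had 6.49 and 6.96 in Dicer-deficient cells, against 6.94, 6.81 and 6.73 in wild-type cells. The remaining members were dim. Prdm6 of smooth muscle, Prdm8 of retina and brain, and Prdm9, which places meiotic recombination, were under the array median on every array, as was Kdm4d, and Prdm13 of the neural tube lay between 5.29 and 5.69. Their log2 changes ran from -0.07 to 0.05 apart from that of Kdm4d.

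**Figure D2:**
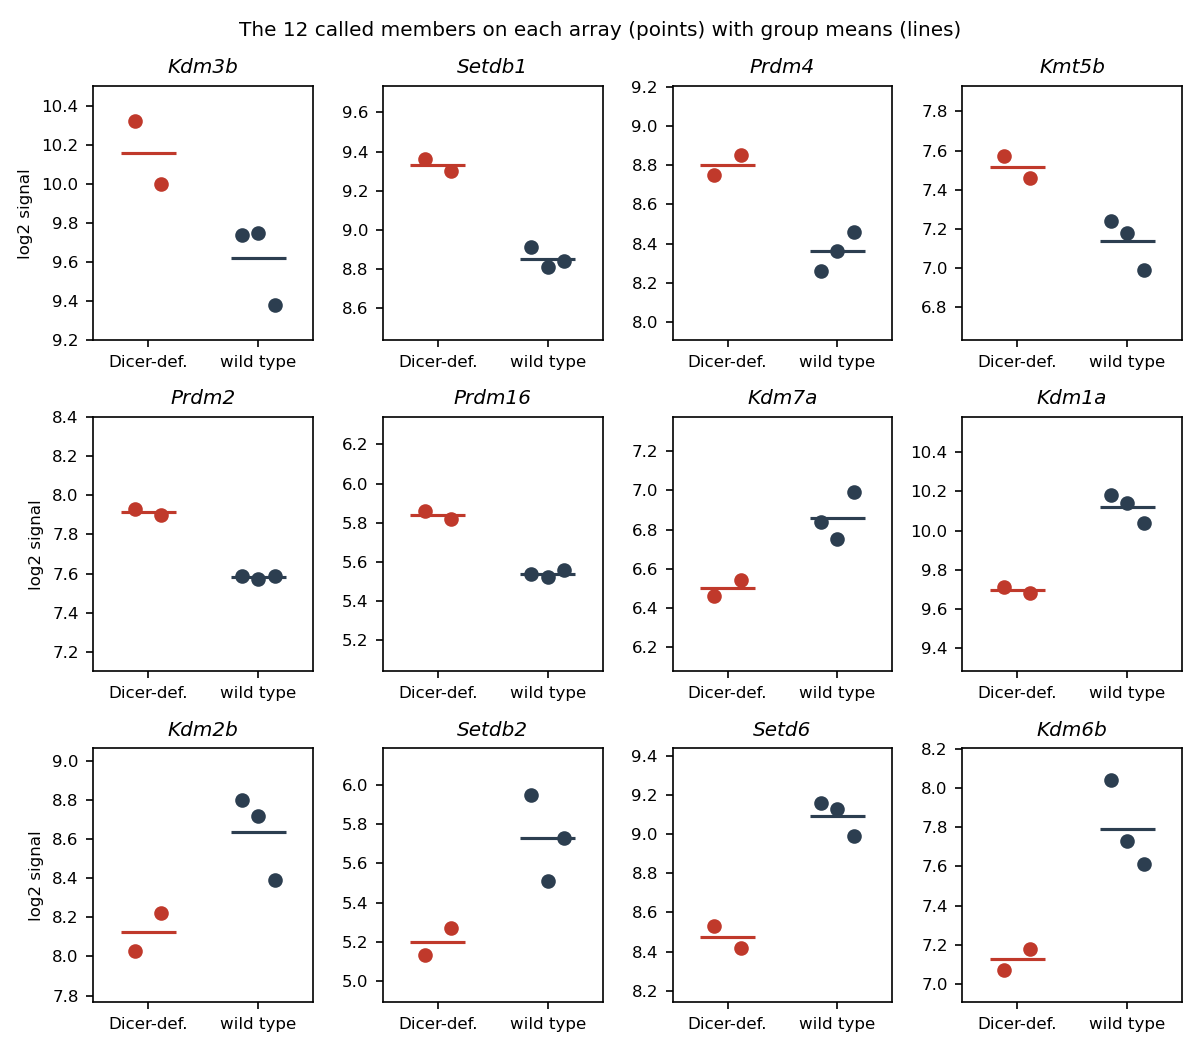
Log2 signal (y axis) of the 12 called members on each array; points are arrays, lines are group means, with Dicer-deficient cells left of wild type, and every panel spans the same number of log2 units. The groups do not overlap for any of the 12, which the test that called them on these arrays favours. The narrowest spreads are those of Prdm2 and Prdm16.

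Over all 45 members, the Dicer-deficient values lay outside the wild-type range for 26 (15 above, 11 below). That is 57.8%, against 39.9% of all genes (20% above, 19.9% below). Here and in the shares that follow, all genes include many dim ones, and the brighter genes alone were not compared. The 95% interval lay within 1.5-fold in either direction for 31 of the 45 (68.9%), against 81.4% of all genes, and for 28 of the 33 without a call. The exceptions were Kmt2e, Setd3, Setd5, Prdm1 and Prdm11. Of the 45, 2 were both called and changed by at least 1.5-fold, Kdm6b and Setd6, where 7.43% of all genes were.

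The wild-type arrays were not alike over these genes. Array 1 was the highest of the wild-type arrays for 23 of the 45 members (51.1%, against 28.3% of all genes), and array 3 the lowest for 25 (55.6%, against 33.9%). The median difference between wild-type arrays 1 and 3 was 0.15 for the members and -0.02 for all genes. Kmt2b, Kmt2d, Kdm2b, Kdm6b, Kdm5c and Setd2 followed this order. Without wild-type array 1 the calls on members were 1 higher and 3 lower, without array 2 they were 2 and 2, and without array 3 they were 4 and 4. The calls on all genes also became fewer, at 1179 higher and 999 lower with array 1 dropped, 971 higher and 768 lower with array 2 dropped, and 1395 higher and 1558 lower with array 3 dropped.

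**Figure D3:**
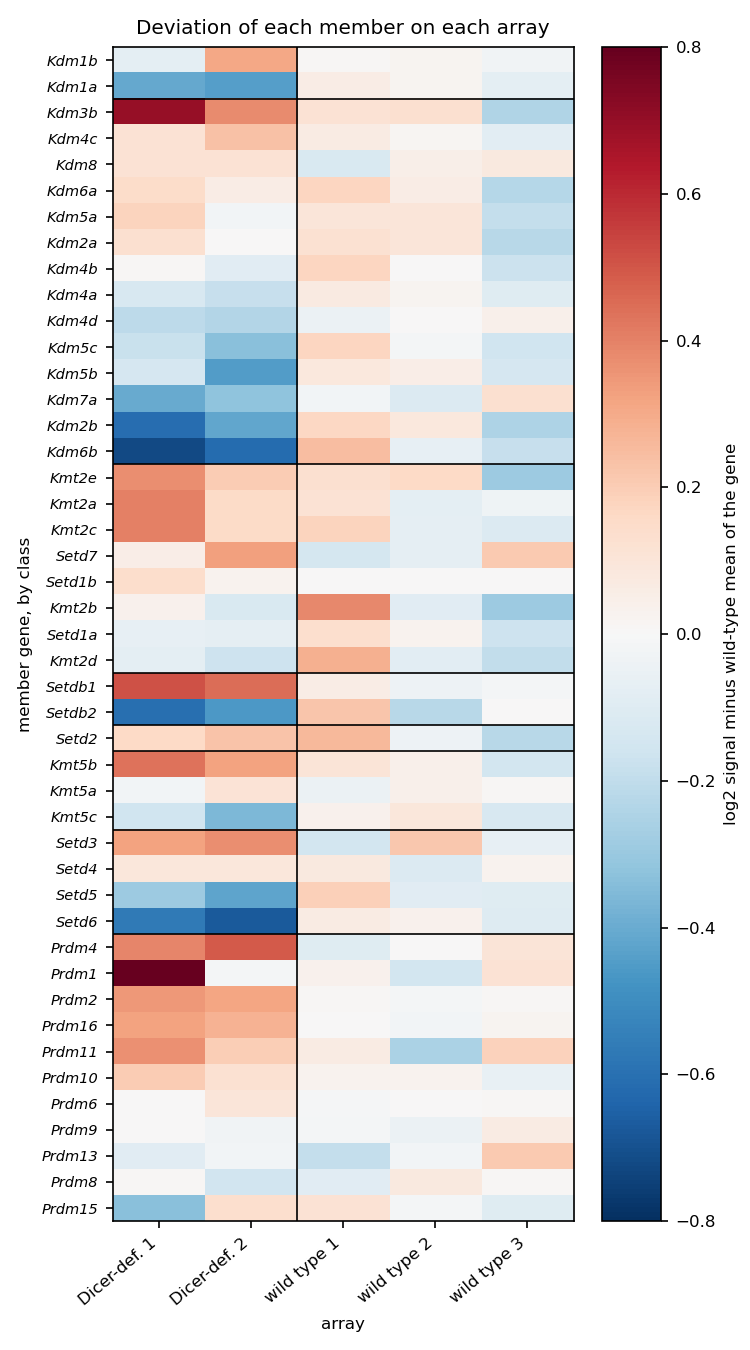
Log2 signal of each member (rows, by class) on each array (columns) minus the wild-type mean of that gene; red is above and blue below that mean. The Dicer-deficient columns are alike for the called members, which the test that called them on these arrays favours. Prdm1 is high on Dicer-deficient array 1 only, and wild-type array 1 is more often red than wild-type array 3.

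Promoter windows were available in RefSeq (GRCm38.p6) for 35 of the 45 members, 47 windows of 300 bases in all, from 250 before to 50 after a transcript start. Those of the members with the smallest adjusted p in each direction are shown: Setdb1 and Prdm4, which rose, and Setd6 and Kdm1a, which fell. Of the overlapping pair of Prdm4 windows, the upstream one is given. Capitals mark every match, on either strand, to the GC box GGGCGG, the CCAAT box CCAAT or the ETS core CCGGAAG.
Setdb1, chr3:95357153-95357452, minus strand: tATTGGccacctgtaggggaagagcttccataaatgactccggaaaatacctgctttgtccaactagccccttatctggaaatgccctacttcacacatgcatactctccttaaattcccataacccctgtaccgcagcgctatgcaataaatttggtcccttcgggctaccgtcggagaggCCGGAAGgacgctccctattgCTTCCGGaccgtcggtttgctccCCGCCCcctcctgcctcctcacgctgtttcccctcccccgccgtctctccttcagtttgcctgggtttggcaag
Prdm4, chr10:85916937-85917236, minus strand: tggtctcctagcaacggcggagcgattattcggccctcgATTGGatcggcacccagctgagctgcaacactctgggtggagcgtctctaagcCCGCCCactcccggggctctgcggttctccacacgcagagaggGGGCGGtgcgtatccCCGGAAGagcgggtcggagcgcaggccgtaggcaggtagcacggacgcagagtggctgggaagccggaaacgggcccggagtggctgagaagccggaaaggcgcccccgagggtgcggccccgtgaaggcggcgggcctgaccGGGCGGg
Setd6, chr8:95715663-95715962, plus strand: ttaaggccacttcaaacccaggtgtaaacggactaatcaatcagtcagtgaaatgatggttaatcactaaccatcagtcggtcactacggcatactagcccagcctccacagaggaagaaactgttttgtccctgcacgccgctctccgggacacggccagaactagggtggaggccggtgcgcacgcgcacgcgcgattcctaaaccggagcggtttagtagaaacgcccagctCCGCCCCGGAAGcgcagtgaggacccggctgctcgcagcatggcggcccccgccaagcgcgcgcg
Kdm1a, chr4:136602674-136602973, minus strand: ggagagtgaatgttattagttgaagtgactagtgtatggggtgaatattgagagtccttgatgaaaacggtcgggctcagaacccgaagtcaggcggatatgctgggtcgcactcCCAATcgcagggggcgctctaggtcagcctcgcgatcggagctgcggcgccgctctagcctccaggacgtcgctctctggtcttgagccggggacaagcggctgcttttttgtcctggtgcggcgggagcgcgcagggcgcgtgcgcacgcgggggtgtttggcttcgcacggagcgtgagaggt
All 4 were rich in CpG, with 15 CpG in Setdb1, 32 in Prdm4, 28 in Setd6 and 29 in Kdm1a. The median was 24 over the member windows and 7 over all 32851 windows of the table. A GC box stood in 61.7% of member windows, against 35.7% of all windows. It was in 6 of 6 windows of members that rose, 5 of 8 of those that fell and 18 of 33 of the others. A CCAAT box stood in 51.1% of member windows (37.4% of all), an ETS core in 14.9% (8.86%) and the E-box CACGTG in 6.38% (7.15%). In Setd6 the GC box and the ETS core overlap. Windows of a gene overlap in part, so these shares describe the windows and are no test, and a match is no proof of binding.

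Neighbours on the chromosome were compared with the called members. Of the 20 measured genes nearest to Kdm6b on chromosome 11 in gene order, 8 were called lower and 0 higher in limma, with a median log2 change of -0.31, while 15% of the genes of the chromosome were called lower. Of the 20 nearest to Setdb2 on chromosome 14, 4 were lower and 2 higher with a median of -0.07, and 19.7% of genes of that chromosome were called lower, against 8.6% of all genes. Setd6 on chromosome 8 had 4 of 20 lower and 0 higher, with a median of -0.05, and 8.69% of genes of that chromosome were called lower. Setdb1 on chromosome 3, which rose, had 5 of 20 neighbours higher and 0 lower, with a median of -0.00417. Of the genes of chromosome 3, 10.6% were called higher. Around the other 5 that rose, neighbours were 3 higher and 1 lower for both Prdm2 and Prdm4, 2 higher and 3 lower for Kdm3b, 1 higher and 2 lower of 18 for Kmt5b, and 0 higher and 1 lower for Prdm16. Around the other 3 that fell, they were 2 higher and 1 lower for both Kdm1a and Kdm7a, and 0 higher and 2 lower for Kdm2b. On the chromosomes of those 5 that rose, 7.41% to 10.6% of genes were called higher, against 8.48% of all genes. On the chromosomes of those 3 that fell, 5.64% to 8.42% were called lower, against 8.6% of all genes. The part of these neighbourhoods in the changes of the members was not tested.

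**Figure D4:**
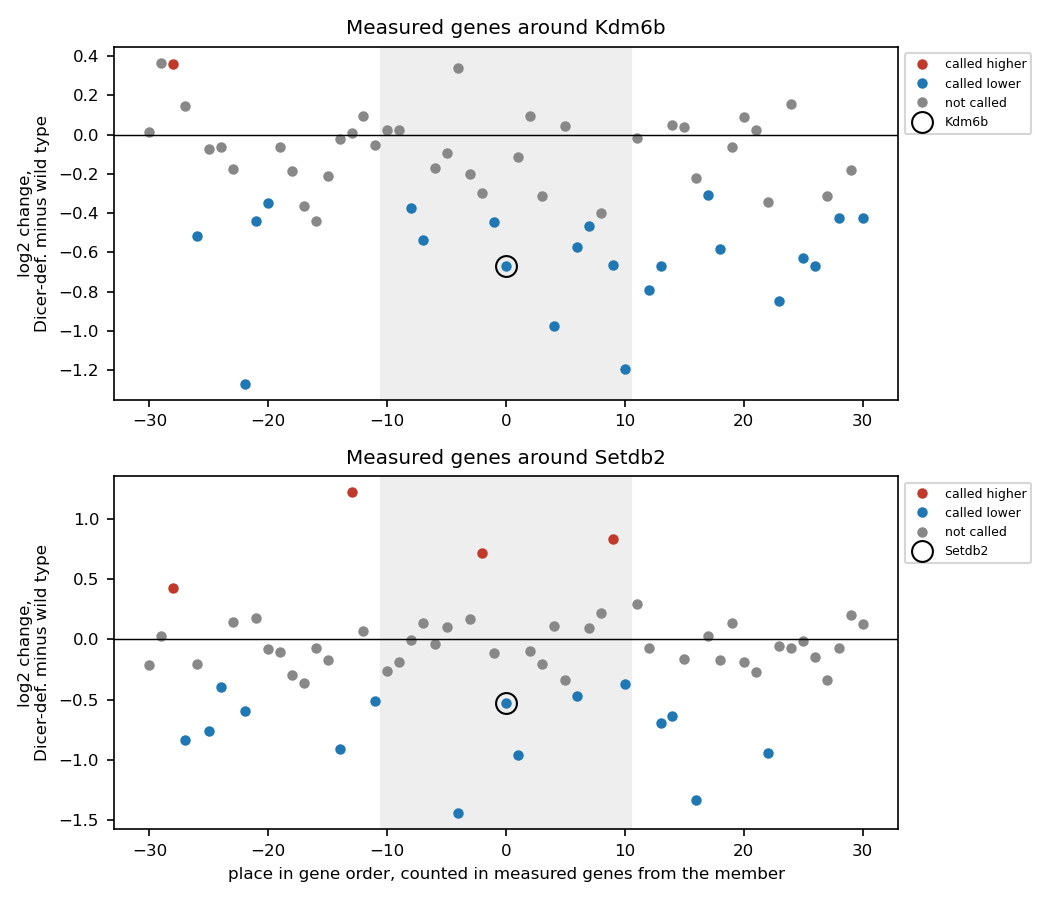
Log2 change (Dicer-deficient minus wild type, y axis) of measured genes by their place in gene order around Kdm6b and Setdb2 (circled); grey shading spans the 10 nearest on each side, and colours mark calls. Around Kdm6b 8 of 20 shaded genes are called lower and 0 higher; around Setdb2 4 are lower and 2 higher.

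Other lysine methyltransferases, outside the names that define the members, were called only as higher. Of 16 measured from the list, 4 rose and 0 fell (25%), with a median log2 change of 0.13. The shares called were 17.1% of all genes and, in their own fit, 32.8% of the brighter genes. Smyd1, a methyltransferase of muscle, had 7.68 and 7.79 in Dicer-deficient cells, against 4.83, 5.13 and 5.05 in wild-type cells, the wild-type values being under the array median (log2 change 2.73). Smyd2 was 2.07-fold higher (adjusted p = 0.000506). Ehmt2, or G9a, the main H3K9 dimethylase, had 9.28 and 9.44 in Dicer-deficient cells, against 8.81, 8.83 and 8.60 in wild-type cells (1.53-fold higher, adjusted p = 0.00585), and Nsd2, an H3K36 dimethylase, was 1.48-fold higher (adjusted p = 0.00594). Ehmt2 and Nsd2 lost their calls without either Dicer-deficient array (adjusted p from 0.065 to 0.101 and from 0.0708 to 0.097). Ezh2, the catalytic subunit of PRC2, had a log2 change of -0.06 (95% interval -0.24 to 0.12).

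JmjC proteins outside the Kdm names had 3 higher and 3 lower of 14 (42.9% called) and a median log2 change of -0.15. Of all genes, 17.1% were called, and of the brighter genes, in their own fit, 32.8%. Besides Uty, Jmjd6 fell 1.42-fold (adjusted p = 0.00804) and Riox1 1.32-fold (0.0388), while Hif1an, the hydroxylase that restrains HIF, rose 1.77-fold (adjusted p = 0.000894), Jarid2 of PRC2 1.36-fold (0.0174) and Riox2 1.34-fold (0.0166). The calls on Uty and Hif1an held whichever array was left out. For Jmjd6 the adjusted p was 0.0531 to 0.0752 with wild-type array 2 or Dicer-deficient array 1 dropped, and for Jarid2 it was 0.0729 to 0.176 with wild-type array 2 or either Dicer-deficient array dropped. The call on Riox2 held only when Dicer-deficient array 1 was dropped (0.05 to 0.113 otherwise), and that on Riox1 in none of the 5 (0.0505 to 0.219).

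Partners of the H3K4 methyltransferases in COMPASS and MLL complexes had 0 higher and 2 lower of 17 (11.8%), with a median of -0.09. An unadjusted p under 0.05 was seen for 3. Of all genes, 17.1% were called and 27.8% had such a p. The core subunits Wdr5, Rbbp5, Ash2l and Dpy30 had log2 changes of -0.13, -0.13, 0.03 and -0.03. Of this list Bod1 fell 1.57-fold (adjusted p = 0.0022; it was 0.0557 with Dicer-deficient array 1 dropped). Kansl1 fell 1.41-fold (adjusted p = 0.0219), a call that, with 1 array left out, held only without wild-type array 3 (0.0824 to 0.223 otherwise). Its other probe set had a log2 change of -0.29 (adjusted p = 0.174), and the mean of its probe sets lost the call (-0.39, adjusted p = 0.0585). Of 18 readers and corepressors of H3K9 methylation, 4 rose and 3 fell (38.9% called), with a median log2 change of 0.17. Among the brighter genes, in their own fit, 32.8% were called. The HP1 genes divided, Cbx5 and Cbx3 being 1.26-fold and 1.24-fold higher (adjusted p = 0.0225 and 0.0445) and Cbx1 1.32-fold lower (0.0158). When 1 array was left out, all 3 HP1 calls held only without wild-type array 3 (adjusted p from 0.0541 to 0.21 otherwise). Cbx3 had 6 other probe sets, all with changes above 0, of which 5 did not pass (adjusted p from 0.0662 to 0.282), and its mean of probe sets lost the call (log2 change 0.25, adjusted p = 0.0875). Of the silencing complex that works with Setdb1, Pphln1 was 1.40-fold higher (adjusted p = 0.00477, or 0.0592 with Dicer-deficient array 2 dropped) and Morc2a 1.40-fold lower (0.00624, or 0.0708 to 0.0799 with either Dicer-deficient array dropped). Trim28 and Atf7ip, its recruiting factor and cofactor, had changes of -0.13 and 0.24 (adjusted p = 0.468 and 0.0757). Phf21a lost its call without either Dicer-deficient array (0.0808 to 0.099), and Zmym2 kept its call whichever array was left out.

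The arginine methyltransferases, set beside the lysine enzymes, had 5 lower and 0 higher of 10 in limma (50%), with a median log2 change of -0.27. An unadjusted p under 0.05 was seen for 7. Of all genes, 17.1% were called and 27.8% had such a p, and 32.8% of the brighter genes were called in their own fit. Prmt8 had 4.59 and 4.61 in Dicer-deficient cells, against 6.22, 5.95 and 5.85 in wild-type cells, its Dicer-deficient signals being under the array median. Prmt5, which makes symmetric dimethylarginine, had 9.78 and 9.89 in Dicer-deficient cells, against 10.57, 10.66 and 10.45 in wild-type cells (1.65-fold lower, adjusted p = 0.00188, or 0.0563 with Dicer-deficient array 1 dropped). Prmt9, Prmt7 and Carm1 were 1.63-fold, 1.46-fold and 1.26-fold lower (adjusted p = 0.00204, 0.00527 and 0.0215). Prmt9 and Prmt7 lost their calls without either Dicer-deficient array (0.0556 to 0.0868), and Carm1 held only when wild-type array 3 was dropped (0.0648 to 0.129 otherwise).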

How the data were processed

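RNA of Dicer-deficient ES cells (2 arrays) and wild type ES cells (3 arrays) was hybridised as biotin-labelled cRNA to Affymetrix whole-transcript arrays, per the labels' protocols. The authors deposited 1 table of log2 signals for 35556 probe sets. Background correction, probe summary, normalization and log base are not given in the sources used here. The values were read as normalized log2 because all are positive and the medians of the arrays lie at 5.39 to 5.45. Another base would rescale every change. Levels of different probe sets were compared only to pick 1 per gene, against the array median and in the marker lists. Such comparisons are rough. Signal over background was not analysed here, and precision is limited by how few arrays there are.

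The platform annotation, which can be old, gave 21789 probe sets 1 symbol, 1621 several and 12146 none; only the first were named. Chromosomes and gene order came from a GRCm38.p6 gene table by gene identifier (19856 of 19938 genes); no gene coordinates are given, as the annotation names no build. The test was limma's lmFit and eBayes (3 residual and 4.54 prior degrees of freedom) with Benjamini-Hochberg adjustment over 19938 genes at 0.05, Dicer-deficient minus wild type, no covariate. Nothing says the arrays of a group came from separate cultures or clones, so p-values measure only the spread between these samples. An exact permutation of 2 against 3 arrays cannot reach 0.05. SEs and 95% intervals are limma's; a call means an adjusted p under 0.05. Every member is accounted for, and lists name their called genes, at most 6 by size, with further list genes named after their values were seen. Members, classes and lists were chosen with earlier results of these data known. Alternatives were a further quantile normalization, centring on array medians, a filter on dim genes, limma's trend and robust options, the replicate number as a block, each array left out, the mean of probe sets, every probe set, and limma's treat at 1.2-fold. The fit was tested on simulated data. Tools were R 4.3.3, limma 3.58.1, Python 3.11.15, pandas 2.3.3, numpy 2.4.6 and matplotlib 3.10.9.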

Additional observations from a re-analysis of the deposited data

How the results depend on the processing

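A further quantile normalization, centring on array medians, a filter on dim genes, limma's trend and robust options, the mean of probe sets and every probe set on its own left each count of calls, on members and on all genes, within 1.5 times its value, and the median change of the members between 0.03 and 0.09 over all settings that give one. With each array left out in turn, members called higher numbered 0 to 4 and lower 0 to 4, against 536 to 1395 and 434 to 1558 of all genes; where a Dicer-deficient array is left out, the lone one is assumed to vary like the others. Of the 12 called members, 0 kept the call in all 5 of these limma fits, and 0 changed sign in any refit of their own probe set. With the replicate number as a block (replicate block), 0 members were called higher and 1 lower, against 477 and 417 of all genes. Same-numbered arrays had deviations from their group mean correlated at 0.0492 and 0.00525 over 2 pairs. The deviations of the 2 Dicer-deficient arrays mirror each other, so these values cannot decide whether same-numbered arrays belong together. Against a minimum change of 1.2-fold, 0 members were higher and 1, Setd6, lower (655 and 489 of all genes). The other probe set of Prdm2 had a change of -0.045, with the sign turned and adjusted p = 0.93, and its mean of probe sets lost the call (0.526); Prdm16 lost its call with an intensity trend (0.0528). Of the 33 members not called, 14 changed sign under some alternative and 3 gained a call under one: Prdm1 and Setd3 as given above and, with dim genes left out, Setd3 (0.0474) and Setd5 (0.0384; 0.0479 after a further quantile normalization). The cause of these shifts was not tested. Signals near or under the array median limit the sizes given for Setdb2, Prdm16, Kdm4d and the dim PRDM genes.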
